A study of Mus musculus with 3 samples.

Results

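Glycogen metabolism was described through 8 genes, Ppp1r3g, Ppp1r3c, Ppp1r3d, Gys1, Gbe1, Phkg1, Pygb and Pygm, in the hippocampus of aged mice. They are 8 of the 31053 genes in the deposited tables, and all were found there by symbol. Each was followed per library in 6 cell classes: astrocytes, ependymal cells, endothelial cells, microglia, pericytes and oligodendrocyte precursor cells (OPC). The mice were untreated wild-type C57BL/6 animals whose age label was 2 years, and single cells of the hippocampus were sequenced by droplet capture with 3′ tag counting. All 3 libraries carry the same labels and were taken as replicates 1, 2 and 3 of 1 group, although the title of replicate 3 names 25 months. The series text speaks of 6 hippocampi, and the labels do not tie animals to libraries. The main p-values thus rest on how differences within a library vary across these libraries, and not on known animals. No young or treated animals are among the samples, so every comparison below is between cell classes or between ranges of astrocytes within the aged hippocampus.

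Glycogen is the branched glucose store of cells, and in the brain it lies mainly in astrocytes, from which its breakdown can feed glycolysis and lactate release. Glycogen synthase adds glucose from UDP-glucose to the growing chain, the branching enzyme sets the side chains, and glycogen phosphorylase releases glucose-1-phosphate from the chain ends. Phosphorylase kinase, which responds to calcium and to cyclic AMP signalling, switches phosphorylase on. Protein phosphatase 1, held at the glycogen particle by a family of targeting subunits, opposes it by activating synthase and switching phosphorylase off.

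The libraries held 7241, 1062 and 6456 cell barcodes in replicates 1, 2 and 3, with 45716237, 7185668 and 40377042 UMIs (unique molecular identifiers, each standing for 1 captured RNA molecule). After filters 12100 cells remained, and 10756 of them fell into the 6 classes by detection of class markers: 2555 astrocytes, 874 ependymal cells, 4904 endothelial cells, 1931 microglia, 168 pericytes and 324 OPC. All 24 of 24 further markers, which had not been used to set the classes, were highest in their own class. Between 2 and 12 barcodes were shared by each pair of libraries. Replicate 2 is the shallowest library, and its 17 pericytes and 15 OPC were too few for the fits, which therefore rest on 16 summed profiles. Median mitochondrial shares were 10.4% in astrocytes and 1.87% to 7.40% in the other classes. Levels are given as CPM, the UMIs of a gene scaled to a common total of UMIs in each class and library. Each RNA is counted at its 3′ end, so levels are compared between classes and not between genes, apart from the shares of paralogue pairs given for phosphorylase kinase and phosphorylase. A class holding fewer cells of a type and cells holding less RNA cannot be told apart in such sums.

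The promoter windows of 4 genes are shown as examples of the patterns of levels described below. Ppp1r3g had nearly all of its level in astrocytes, and Gbe1 was highest in endothelial cells. Ppp1r3c came next in ependymal cells and then, from 10 UMIs, in pericytes, and Pygm was shared with pericytes. Not every gene follows these patterns: Gys1 came next in OPC, and Ppp1r3d was also called higher in microglia. The windows run from 250 bases before to 50 bases after the RefSeq start (assembly GRCm38.p6) and are 300 bases long. They lie at chr13:35967656-35967955 on the plus strand for Ppp1r3g, chr19:36736555-36736854 on the minus strand for Ppp1r3c, chr19:6384158-6384457 on the plus strand for Pygm and chr16:70313699-70313998 on the plus strand for Gbe1. Capitals mark matches to 6 motifs searched on both strands. They are the GC box GGGCGG, the CCAAT box, the TATA box TATAAA, the E-box CACGTG, the full palindromic NFI motif and the STAT-type motif TTCNNNGAA, where N is any base; a match on the other strand appears as its reverse complement, as ATTGG for CCAAT.
Ppp1r3g: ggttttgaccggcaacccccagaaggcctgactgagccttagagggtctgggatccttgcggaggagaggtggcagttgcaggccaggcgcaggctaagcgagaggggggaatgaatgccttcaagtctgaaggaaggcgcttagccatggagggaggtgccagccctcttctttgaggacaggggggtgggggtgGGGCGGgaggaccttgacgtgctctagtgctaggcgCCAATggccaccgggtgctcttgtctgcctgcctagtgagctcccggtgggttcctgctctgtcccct
Ppp1r3c: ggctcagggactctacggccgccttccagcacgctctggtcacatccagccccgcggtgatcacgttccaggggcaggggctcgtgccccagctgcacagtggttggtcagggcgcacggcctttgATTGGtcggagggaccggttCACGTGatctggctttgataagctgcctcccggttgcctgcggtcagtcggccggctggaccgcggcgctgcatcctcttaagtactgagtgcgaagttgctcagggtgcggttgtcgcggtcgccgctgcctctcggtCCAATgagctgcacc
Pygm: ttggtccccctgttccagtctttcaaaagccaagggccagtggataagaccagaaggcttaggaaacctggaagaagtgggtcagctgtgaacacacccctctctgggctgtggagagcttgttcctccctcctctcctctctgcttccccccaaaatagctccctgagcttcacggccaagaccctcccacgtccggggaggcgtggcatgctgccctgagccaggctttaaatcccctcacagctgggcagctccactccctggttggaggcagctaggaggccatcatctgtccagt
Gbe1: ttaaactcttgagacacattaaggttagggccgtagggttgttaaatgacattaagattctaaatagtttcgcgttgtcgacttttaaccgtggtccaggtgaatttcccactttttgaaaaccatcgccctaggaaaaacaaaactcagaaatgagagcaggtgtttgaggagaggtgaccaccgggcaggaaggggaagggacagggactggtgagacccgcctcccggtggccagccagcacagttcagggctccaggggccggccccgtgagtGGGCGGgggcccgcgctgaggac
GGGCGG was in the windows of 4 of the 8 genes and in 35.7% of all 32851 promoter windows, and CCAAT in 4 of 8 and 37.4%. CACGTG was in 2 of 8, Ppp1r3c and Ppp1r3d, and in 7.15% of all windows. TATAAA, the NFI motif and TTCNNNGAA matched none of the 8 windows and 13.6%, 0.0365% and 8.30% of all windows. The median GC content was 60.5% over the 8 windows and 52.7% over all windows. These are matches of letters within 300 bases, not sites shown to be used.

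Of the 8 genes, 7 were higher in astrocytes than in the mean of the other 5 classes and none was lower (edgeR's quasi-likelihood test, Benjamini-Hochberg adjusted p under 0.05 over 14891 genes). In the same comparison 28.5% of all genes tested were higher and 19.9% were lower, so a call by itself is common between such distinct cell classes. The median log2 difference was 3.77 over the 8 genes and 0.08 over all genes tested. It was 0.47 over the 24 other pathway genes tested. The 8 genes were chosen with earlier results of these data known, including the astrocyte level of Ppp1r3g. The gap between these medians is therefore a description and no test. With Ppp1r3g and Gys1, which had 0 UMIs in the fitted pericyte profiles, set at their lower bounds, the median over the 8 genes was 3.44. It was 3.85 with pericytes left out of the mean. Gbe1 was the exception, with a log2 difference of 0.23 ± 0.21 and a 95% interval of -0.20 to 0.66 (SE, edgeR's quasi-likelihood test, adjusted p = 0.406).

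**Figure D1:**
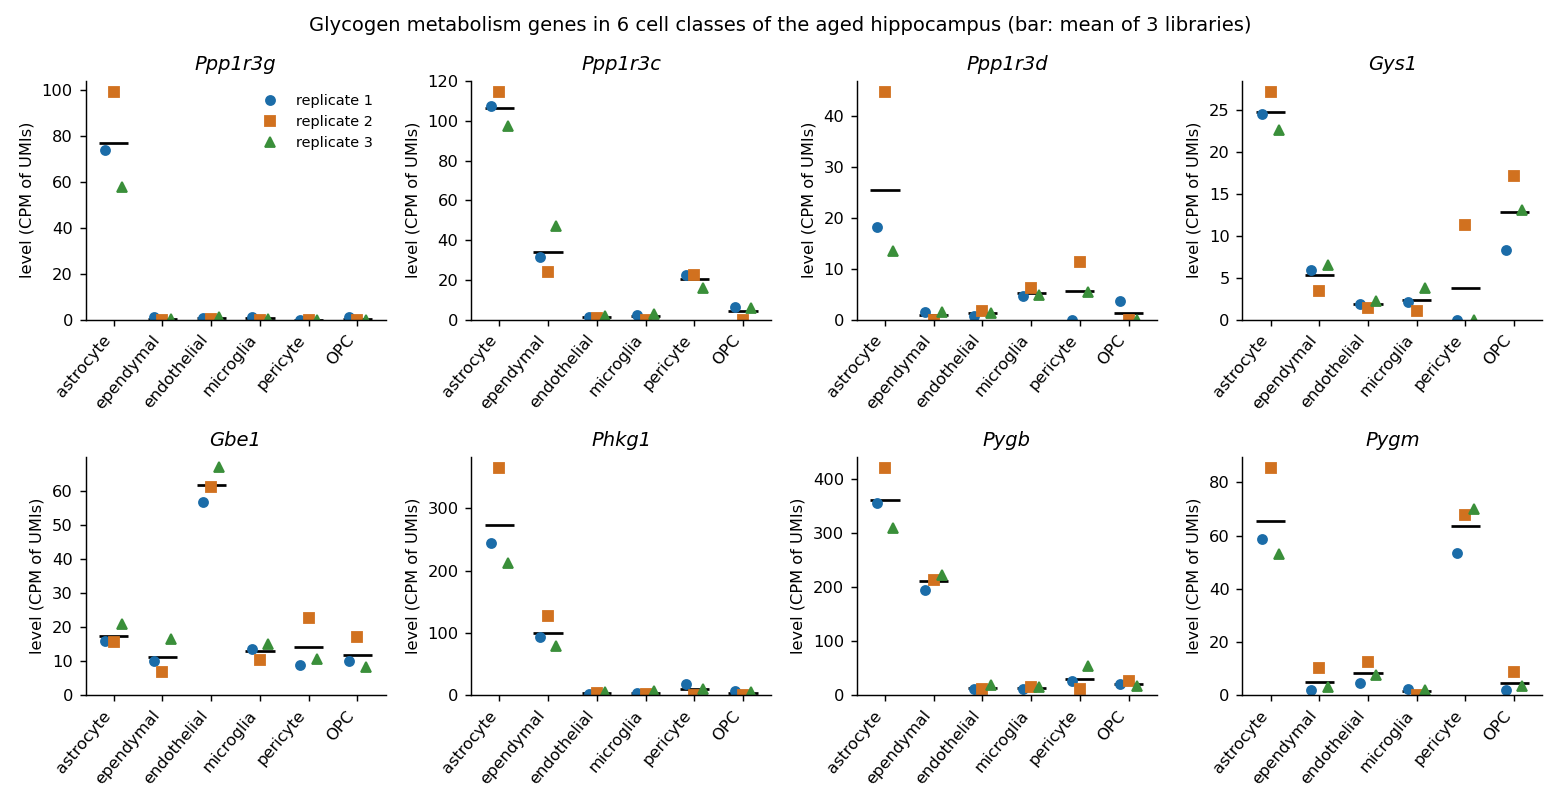
Level of the 8 genes in CPM of UMIs (y axis, linear from 0, scaled per gene) in each of 6 cell classes (x axis); points are the 3 libraries and bars their mean. Of the genes, 7 have their highest mean in astrocytes, with Pygm at 65.6 CPM in astrocytes beside 63.6 CPM in pericytes, and Gbe1 has its highest mean, 61.6 CPM, in endothelial cells.

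Of the targeting subunits of protein phosphatase 1, Ppp1r3g had the largest difference between astrocytes and the other classes. Ppp1r3g (ENSMUSG00000050423.11, chr13:35958839-35970388, plus strand, mm10) encodes a subunit that in mouse liver has been tied to glycogen storage after feeding. It had 73.7, 98.9 and 57.8 CPM in astrocytes of replicates 1, 2 and 3, from 922 UMIs in all. In the other classes no library exceeded 0.993 CPM, and the means were 0.592 CPM in endothelial cells, 0.466 in microglia, 0.409 in ependymal cells, 0.309 in OPC and 0 in pericytes. The groups did not overlap. Astrocytes held 97.7% of the summed class means. Against endothelial cells the level was 6.50 ± 0.32 higher on the log2 scale and against ependymal cells 7.23 ± 0.47 (SE, edgeR's quasi-likelihood test, adjusted p = 5.79e-14 and 2.06e-11). Against pericytes, with 0 UMIs, it was at least 11.2-fold higher, taking 3 counts over the group as the floor. The fitted log2 difference from the mean of the other 5 classes was 7.74 (adjusted p = 2.96e-15), leans on those empty profiles and is no bound; without pericytes in the mean it was 6.86 ± 0.26 (adjusted p = 7.42e-16, edgeR's quasi-likelihood test).

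Ppp1r3c (ENSMUSG00000067279.3, chr19:36731731-36736653, minus strand) encodes the subunit also known as protein targeting to glycogen, which binds synthase and phosphorylase as well as the phosphatase. It had 107, 114 and 97.7 CPM in astrocytes of replicates 1, 2 and 3. The levels were 31.3, 24.2 and 47.2 CPM in ependymal cells and 22.3, 22.5 and 16.1 CPM in pericytes, where 10 UMIs were counted in all. Means in OPC, microglia and endothelial cells were 4.14, 1.79 and 1.35 CPM. Every astrocyte library lay above every library of the other classes. The log2 difference was 4.01 ± 0.18 against the mean of the other 5 classes and 1.65 ± 0.22 against ependymal cells alone (SE, edgeR's quasi-likelihood test, adjusted p = 6.48e-15 and 1.30e-06). The difference between ependymal cells and pericytes, next to each other in the order, did not pass (log2 difference 1.12, 95% interval 0.04 to 2.20, edgeR adjusted p = 0.117).

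Ppp1r3d (ENSMUSG00000049999.4, chr2:178411206-178414472, minus strand) encodes a further targeting subunit. It had 18.1, 44.6 and 13.4 CPM in astrocytes of replicates 1, 2 and 3, and microglia had 4.56, 6.29 and 4.89 CPM. The pericyte mean of 5.55 CPM rests on 2 UMIs, and the other classes averaged 0.962 to 1.23 CPM. Replicate 2 stood above the others in astrocytes, and even the lowest astrocyte library was above the highest library elsewhere, 11.3 CPM in pericytes of replicate 2. Astrocytes were 3.18 ± 0.34 higher on the log2 scale than the mean of the others and 1.45 ± 0.36 higher than microglia (SE, edgeR's quasi-likelihood test, adjusted p = 3.83e-08 and 0.00110). Endothelial cells were lower than microglia, with a log2 difference, endothelial minus microglia, of -2.54 ± 0.41 (adjusted p = 1.28e-05, edgeR's quasi-likelihood test). The difference of microglia from the mean of the other 5 classes, 1.43 ± 0.41 (adjusted p = 0.00454), depends on the scaling between classes: without scaling factors it was 0.79 (adjusted p = 0.123, edgeR's quasi-likelihood test).

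The remaining targeting subunits divided the classes differently. Ppp1r3b, the subunit best known from liver, had 0 UMIs in astrocytes of all 3 libraries, which allows a level of up to 0.219 CPM. It had 9.54, 13.6 and 16.3 CPM in microglia of replicates 1, 2 and 3 and 2.99 ± 0.487 CPM in ependymal cells (SD, n = 3). Ppp1r3a, known as the muscle subunit, had no UMI in any class. Ppp1r3e and Ppp1r3f were low, at 5.50 and 9.27 CPM in astrocytes and 6.61 and 13.1 CPM in ependymal cells. Of the catalytic subunits, Ppp1ca and Ppp1cc were lower in astrocytes than in the mean of the other classes (log2 differences -0.55 ± 0.14 and -1.28 ± 0.18, edgeR's quasi-likelihood test, adjusted p = 0.00215 and 2.44e-06), and Ppp1cb was at -0.39 ± 0.17 (adjusted p = 0.0706, or 0.0248 without scaling factors). These signs were the same under each scaling tried.

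Glycogen synthase and the branching enzyme build the polymer. Gys1 (ENSMUSG00000003865.16, chr7:45434844-45456619, plus strand) encodes the synthase of muscle and brain. It had 24.6, 27.2 and 22.7 CPM in astrocytes of replicates 1, 2 and 3, and 8.33, 17.2 and 13.1 CPM in OPC, where the value of replicate 2 comes from 2 UMIs. Ependymal cells, microglia and endothelial cells averaged 5.31, 2.29 and 1.80 CPM. No library of another class reached the astrocyte range. Astrocytes were 1.76 ± 0.37 higher than OPC on the log2 scale (SE, adjusted p = 6.21e-04) and 2.17 ± 0.32 higher than ependymal cells (adjusted p = 6.46e-06, edgeR's quasi-likelihood test). The whole pericyte class held 1 UMI of Gys1, a ratio of 11.9 with a 95% counting interval of 2.12 to 471. The difference from the mean of the other 5 classes was 3.98 (adjusted p = 2.82e-09), or 2.54 ± 0.21 without pericytes in the mean (adjusted p = 1.32e-09, edgeR's quasi-likelihood test). The liver synthase Gys2 had 2 UMIs in the 6 classes together, none of them in astrocytes.

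Gys1 and Ruvbl2, which runs on the opposite strand, share 310 exon bases in the annotation. The sources used here do not state whether counting used strand. Ruvbl2 had 18.6 CPM in astrocytes and 12.1 to 139 CPM in the other classes, with the highest level in ependymal cells, an order unlike that of Gys1.

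Gbe1 (ENSMUSG00000022707.16, chr16:70313949-70569716, plus strand) encodes the branching enzyme, and its order of levels was unlike that of the other 7 genes. It had 56.7, 61.1 and 66.9 CPM in endothelial cells of replicates 1, 2 and 3, against means of 17.5 ± 3.03 CPM in astrocytes, 14.1 ± 7.39 in pericytes, 13.1 ± 2.37 in microglia, 11.9 ± 4.66 in OPC and 11.1 ± 4.91 in ependymal cells (SD, n = 3 each). The lowest endothelial library was above the highest library of every other class, 22.5 CPM in pericytes of replicate 2. Endothelial cells were 2.59 ± 0.16 higher than the mean of the other 5 classes on the log2 scale (SE, edgeR's quasi-likelihood test, adjusted p = 1.97e-12). Against astrocytes alone the endothelial level was 353% of the astrocyte mean, and the fitted log2 difference, astrocytes minus endothelial cells, was -1.97 ± 0.19 (adjusted p = 3.38e-09, edgeR's quasi-likelihood test). The difference between astrocytes and microglia did not pass (-0.11, 95% interval -0.54 to 0.32, edgeR adjusted p = 0.675), nor did that between astrocytes and pericytes (1.17, 95% interval -0.07 to 2.41, adjusted p = 0.172). The fit placed astrocytes above OPC (1.46 ± 0.33, adjusted p = 0.00115) and above ependymal cells (0.60 ± 0.23, adjusted p = 0.0361, edgeR's quasi-likelihood test). The call against ependymal cells held in only 2 of 12 alternatives, those with doublet calls kept and with a mitochondrial limit of 10%. The adjusted p ran from 0.00719 to 0.721 over the 12 (edgeR's quasi-likelihood test or DESeq2), and it was 0.239, 0.0684 and 0.100 without replicate 1, 2 or 3.

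Phosphorylase kinase was represented by Phkg1 (ENSMUSG00000025537.12, chr5:129863421-129898549, minus strand), the catalytic gamma subunit best known from muscle. It had 245, 365 and 212 CPM in astrocytes of replicates 1, 2 and 3 and 93.4, 128 and 79.5 CPM in ependymal cells. Pericytes averaged 9.53 CPM from 6 UMIs, and OPC, microglia and endothelial cells averaged 4.14, 4.01 and 3.46 CPM. Astrocytes and ependymal cells did not overlap, and both lay above all libraries of the other 4 classes. The log2 difference was 4.61 ± 0.19 against the mean of the other 5 classes and 1.61 ± 0.23 against ependymal cells (SE, edgeR's quasi-likelihood test, adjusted p = 1.22e-15 and 2.85e-06). Ependymal cells were in turn 4.47 ± 0.27 higher than endothelial cells (adjusted p = 1.44e-12, edgeR's quasi-likelihood test).

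The paralogue Phkg2, best known from liver, was spread more evenly, with means of 44.2 CPM in astrocytes and 13.4 to 35.5 CPM elsewhere. Phkg1 made up 85.8% of the UMIs of both genes in astrocytes (95% exact binomial interval 84.6 to 86.9), 74.6% in ependymal cells (71.4 to 77.7), 17.9% in microglia (14.2 to 22.0) and 15.9% in endothelial cells (13.5 to 18.7). Such shares set 3′ counts of different genes side by side and are read only between classes; intervals cover counting error only. Of the regulatory subunits, Phka1 had 133 ± 25.9 CPM in astrocytes, against 3.23 to 50.6 CPM in the other classes, and Phkb 60.9 ± 8.68 CPM, against 10.7 to 25.2 CPM (SD, n = 3). Both were higher in astrocytes than in the mean of the others (log2 differences 3.49 ± 0.16 and 1.84 ± 0.17, edgeR's quasi-likelihood test, adjusted p = 9.09e-15 and 4.46e-09). Phka2 did not pass (0.22 ± 0.35, edgeR adjusted p = 0.688). Of the genes for calmodulin, the calcium sensor of the kinase, Calm3 was higher (0.72 ± 0.13) and Calm2 lower (-2.06 ± 0.16; edgeR adjusted p = 4.37e-05 and 3.25e-10).

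Phkg1 shares 630 exon bases with Sumf2 on the opposite strand. Sumf2 had 22.1 CPM in astrocytes, 15.9 in ependymal cells, 15.5 in endothelial cells and 16.0 in microglia, so its levels in these classes lay close together where those of Phkg1 did not. In astrocytes Phkg1 was also uneven over depth: cells with at least 1000 and under 5000 UMIs had 354, 518 and 364 CPM in replicates 1, 2 and 3, and cells with 5000 or more had 204, 328 and 189 CPM. Cells under 1000 UMIs had 151 and 148 CPM in replicates 1 and 3 and no UMI in the 24 cells of replicate 2. Pygb had 355, 480 and 327 CPM in the middle range and 354, 406 and 304 CPM in the deepest cells.

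The phosphorylases release glucose from glycogen. Pygb (ENSMUSG00000033059.7, chr2:150786735-150831758, plus strand) encodes the brain isoform. It had 356, 421 and 309 CPM in astrocytes of replicates 1, 2 and 3 and 194, 214 and 223 CPM in ependymal cells. Pericytes, OPC, microglia and endothelial cells averaged 30.6, 20.9, 14.3 and 14.1 CPM. Both leading classes were clear of the rest, and astrocytes were above ependymal cells in each library. The log2 difference was 3.56 ± 0.13 against the mean of the other 5 classes and 0.92 ± 0.17 against ependymal cells (SE, edgeR's quasi-likelihood test, adjusted p = 2.91e-16 and 9.60e-05). Ependymal cells were 2.45 ± 0.14 higher than the mean of their other 5 (adjusted p = 7.79e-13, edgeR's quasi-likelihood test). Among the 4 lower classes the difference between endothelial cells and microglia did not pass (endothelial minus microglia -0.28, 95% interval -0.70 to 0.14, edgeR adjusted p = 0.254).

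Pygm (ENSMUSG00000032648.14, chr19:6384399-6398459, plus strand) encodes the muscle isoform, and it was shared by astrocytes and pericytes. It had 58.6, 85.4 and 53.0 CPM in astrocytes of replicates 1, 2 and 3, against 53.5, 67.6 and 69.9 CPM in pericytes, from 31 UMIs. Endothelial cells, ependymal cells, OPC and microglia averaged 8.29, 5.13, 4.67 and 1.41 CPM. The astrocyte and pericyte libraries overlapped, and both classes were clear of the other 4. Astrocytes minus pericytes gave a log2 difference of 0.10 with a 95% interval of -0.71 to 0.91 (edgeR's quasi-likelihood test, adjusted p = 0.895). Pericytes were 3.20 ± 0.46 higher than the mean of their other 5 classes, and endothelial minus pericyte cells gave -2.82 ± 0.46 (SE, adjusted p = 1.31e-05 and 4.42e-05, edgeR's quasi-likelihood test). Against ependymal cells, which came next to astrocytes in Pygb, astrocytes were 4.34 ± 0.35 higher in Pygm (adjusted p = 4.89e-10, edgeR's quasi-likelihood test).

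The share of Pygb among the UMIs of Pygb and Pygm differed accordingly between classes. It was 85.9%, 83.1% and 85.4% in astrocytes of replicates 1, 2 and 3, and 99.0%, 95.4% and 98.7% in ependymal cells. Pericytes had 33.3%, 14.3% and 43.5%, from 48 UMIs in all, and over all pericytes the share was 35.4% (95% exact binomial interval 22.2 to 50.5). The liver isoform Pygl was low, with 12.8 ± 0.886 CPM in astrocytes and 29.4 ± 13.5 CPM in ependymal cells (SD, n = 3).

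Beyond the 8 genes, 26 further genes of the pathway were listed, and 24 of them were tested. In astrocytes against the mean of the other 5 classes 12 were higher and 6 lower, where 28.5% of all genes tested were higher and 19.9% lower. The median log2 difference was 0.47, against 0.08 over all genes tested. The higher genes were Ugp2, Pgm2, Pygl, Gaa, Phka1, Phkb, Phkg2, Calm3, Ppp1r3e, Ppp1r3f, Epm2a and Nhlrc1, and the lower ones Pgm1, Pgm2l1, Calm2, Ppp1ca, Ppp1cc and Gsk3a. Astrocytes were not the highest class in all of the higher genes. Pygl, Calm3, Ppp1r3e and Ppp1r3f had a higher mean in ependymal cells (514 against 337 CPM for Calm3), and Nhlrc1 in OPC (11.4 against 10.1 CPM). The fitted difference of Ppp1r3e, 1.86, leans on 0 UMIs in the fitted pericyte profiles and was 0.91 with DESeq2 (adjusted p = 0.0959). Ugp2, which makes UDP-glucose, had 357, 322 and 327 CPM in astrocytes and means of 34.8 to 129 CPM in the other classes (log2 difference 2.25 ± 0.12, edgeR's quasi-likelihood test, adjusted p = 1.70e-13). Glycogenin, Gyg, the primer of the chain, had 28.9 ± 4.47 CPM in astrocytes and 65.5 ± 27.9 CPM in OPC and did not pass (0.09 ± 0.22, edgeR adjusted p = 0.837). Gsk3a, a kinase that inhibits synthase, was lower in astrocytes (-0.63 ± 0.16, adjusted p = 0.00232, edgeR's quasi-likelihood test). Epm2a and Ppp1r3e passed narrowly (edgeR adjusted p = 0.0491 and 0.0482), and the count was 10 higher and 7 lower with RLE size factors, 10 higher and 8 lower both without scaling factors and without pericytes in the mean. After thinning, 16 of the genes were tested, with 7 higher and 4 lower.

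**Figure D2:**
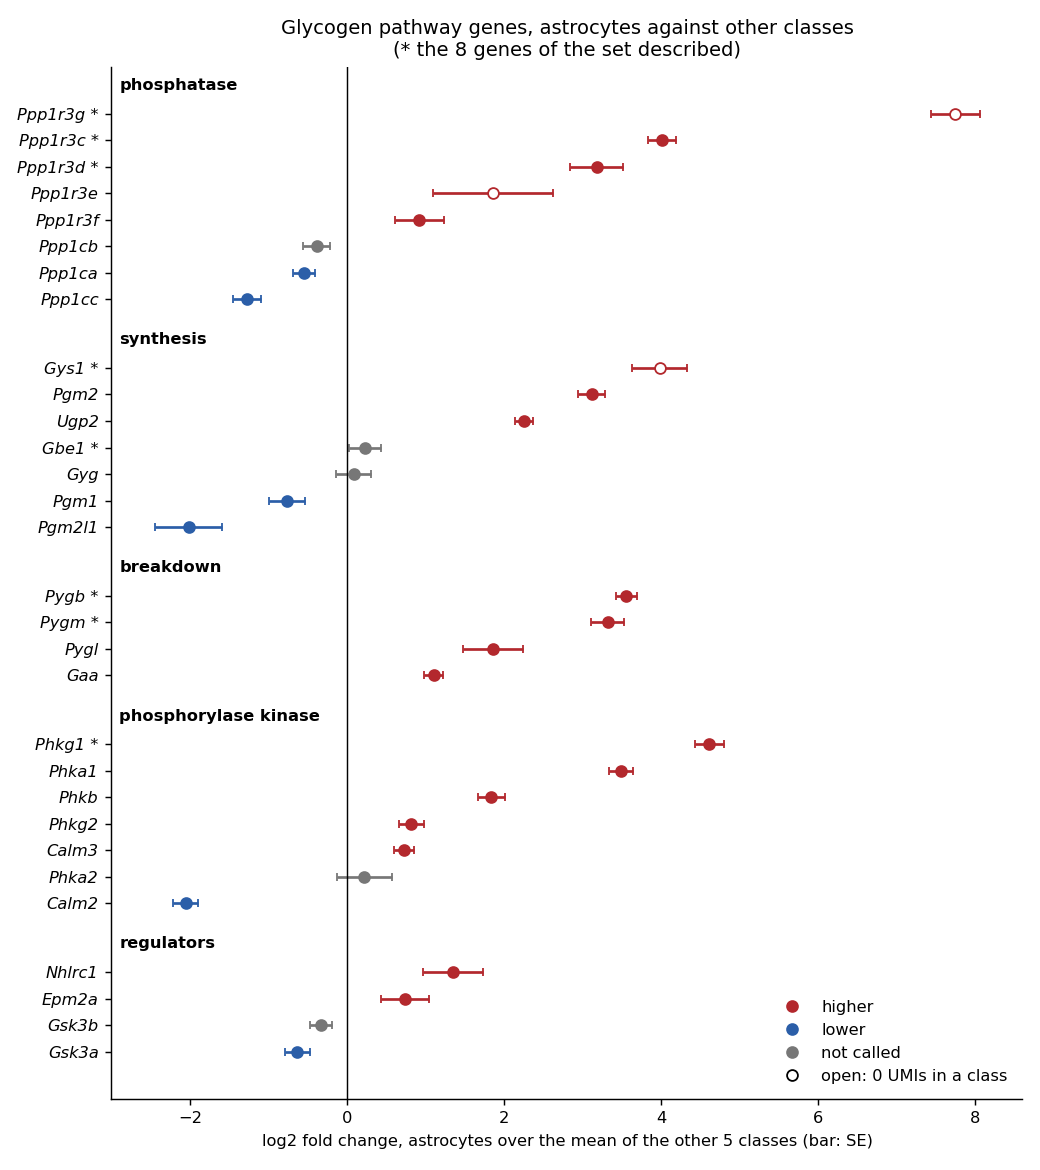
Log2 difference between astrocytes and the mean of the other 5 classes (x axis) for the pathway genes tested, grouped by role and sorted within a role; points are edgeR estimates and bars their SE, and asterisks mark the 8 genes described. Red is higher, blue lower and grey not called at an adjusted p of 0.05; open points had 0 UMIs in a fitted class and their size is no bound. Ppp1r3b and Stbd1, whose fits are uninformative, are not drawn.

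Seen from the other classes, ependymal cells had 3 of the 8 genes higher than the mean of their other 5 classes (Ppp1r3c, Pygb and Phkg1) and 1 lower (Pygm), where 31.0% of all genes tested were higher and 21.8% lower. Endothelial cells had 1 higher (Gbe1) and 4 lower (Ppp1r3c, Ppp1r3d, Pygb and Phkg1), where 30.7% were higher and 18.6% lower. Microglia had 1 higher (Ppp1r3d) and 4 lower (Ppp1r3c, Pygb, Pygm and Phkg1), where 28.5% were higher and 25.7% lower. Pericytes had 1 higher (Pygm) and none lower, where 9.25% were higher and 5.28% lower. OPC had none higher and 5 lower (Ppp1r3c, Pygb, Pygm, Phkg1 and Gbe1), where 22.9% were higher and 18.8% lower. Between single pairs, astrocytes were higher than ependymal cells in all 8 genes, with the reservation given for Gbe1, where 25.2% of all genes were higher and 27.3% lower. Against endothelial cells 7 were higher and Gbe1 lower, where 31.7% of all genes were higher and 31.5% lower. Against microglia 7 were higher, where 34.5% of all genes were higher and 29.5% lower. Against pericytes 6 were higher, where 12.9% were higher and 11.7% lower, and against OPC all 8, where 20.3% were higher and 19.5% lower. Of the calls against pericytes, that of Ppp1r3d rested on 1 pericyte UMI (adjusted p = 0.0460, edgeR's quasi-likelihood test) and was lost in 7 of the 11 alternatives in which it was tested, among them without replicate 1 (edgeR adjusted p = 0.429) and without replicate 2 (edgeR adjusted p = 0.0775).

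Free RNA from broken cells can reach any droplet, so the levels in other classes were set beside those of the 10 astrocyte markers used for the classes. Their summed level was 15484 to 17683 CPM in astrocyte libraries, with none of the 10 at 0 in any class. As a percentage of the astrocyte mean it was 16.4% in ependymal cells, 8.18% in pericytes, 5.37% in OPC, 1.86% in microglia and 1.51% in endothelial cells. In ependymal cells Pygb, Phkg1 and Ppp1r3c stood at 58.2%, 36.6% and 32.1% of their astrocyte means, whereas Pygm and Ppp1r3g stood at 7.81% and 0.532%. In pericytes Pygm stood at 96.9% and Ppp1r3c at 19.1%, and Gys1 in OPC stood at 51.9%. In endothelial cells Phkg1 and Ppp1r3c stood at 1.26% and 1.27% and Pygb at 3.90%. In pericytes and OPC Pygb stood at 8.45% and 5.78%. The class rule left out cells whose astrocyte markers came near the count of their own class, which can lower the list outside astrocytes. Values near its share are therefore not ranked against it. The 4 further astrocyte markers, not used to set classes, summed to a mean of 13427 CPM in astrocytes. They had 1266 CPM in ependymal cells, 546 in pericytes, 502 in OPC, 135 in endothelial cells and 131 in microglia. Single markers were uneven in ependymal cells. Mlc1 had 843 CPM there against 948 in astrocytes, and Slc1a2 had 317 against 11303. Fgfr3 had 75.9 against 598 CPM, and Acsbg1 had 29.6 against 579. Aqp4, from the list of 10, had 478 CPM in ependymal cells and 829 in astrocytes. A summed share thus depends on the markers chosen and is no level of free RNA. The part of free RNA in the levels outside astrocytes was not tested.

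**Figure D3:**
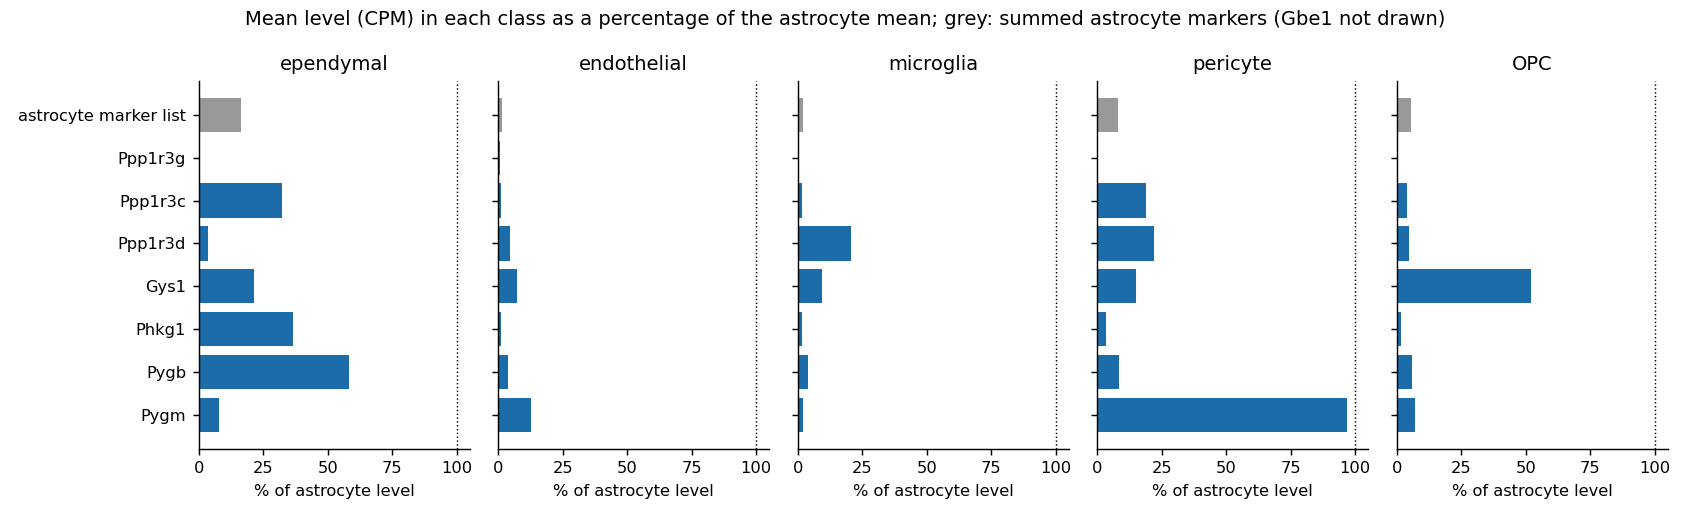
Mean CPM in each of 5 classes as a percentage of the astrocyte mean (x axis, linear from 0, dotted line at 100%) for 7 of the genes, with the summed 10 astrocyte markers in grey. Bars longer than the grey one in the same panel exceed the share of the marker list, as for Pygm in pericytes at 96.9%, Pygb in ependymal cells at 58.2% and Gys1 in OPC at 51.9%. The grey markers also set the classes, which can lower them outside astrocytes. The grey bar depends on the markers chosen and is no level of free RNA.

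Detection in single cells was compared at equal depth, with the cells of the 3 libraries pooled. Intervals cover counting error only and not the spread between libraries. When each cell was thinned to 1000 UMIs, leaving out shallower cells, 2122 astrocytes, 730 ependymal cells, 4678 endothelial cells, 1845 microglia, 149 pericytes and 319 OPC remained. Pygb was detected in 28.8% of 2122 astrocytes (95% exact binomial interval 26.9 to 30.8), 16.8% of ependymal cells and 1.71% of endothelial cells. Phkg1 was detected in 24.7% of astrocytes, 6.71% of ependymal cells and 0.406% of endothelial cells. By library its astrocyte share was 24.7%, 46.7% and 22.1% in replicates 1, 2 and 3. Ppp1r3g was detected in 6.79% of astrocytes (5.75 to 7.94) and in at most 0.137% of the cells of any other class, with 0 of 149 pericytes, which allows up to 2.01% by the limit of 3 cells and 2.45% by the exact upper bound. Pygm was detected in 5.33% of astrocytes and in 5.37% of pericytes (2.35 to 10.3), and Gbe1 in 5.60% of endothelial cells against 1.41% of astrocytes. Without thinning, at a median of 3291 UMIs, the pooled share of astrocytes with a UMI was 63.1% for Pygb, 54.0% for Phkg1 and 24.2% for Ppp1r3g.

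Astrocytes were also divided by Gfap, the intermediate filament that rises in reactive astrocytes. Among astrocytes with at least 1000 UMIs, the highest and the lowest of 3 equal parts by Gfap level were summed in each library, giving Gfap at 3782 ± 1619 CPM in the Gfap-high and 373 ± 153 CPM in the Gfap-low part (SD, n = 3). Of the 8 genes none was higher and 3 were lower in Gfap-high astrocytes, where 7.24% of 9934 genes tested were higher and 6.21% lower (edgeR's quasi-likelihood test with the library as a block, adjusted p under 0.05). These parts are ranges of a level and not cell types. Median UMIs per cell were 3812, 3386 and 7625 in the Gfap-high parts and 3707, 2295 and 3989 in the Gfap-low parts of replicates 1, 2 and 3. Thinning gives each cell the same number of UMIs, but a level that changes with the original depth of a cell stays changed. The part of this depth gap in the differences was therefore not tested. Median mitochondrial shares were 10.3%, 10.0% and 9.92% in the Gfap-high parts and 9.88%, 12.5% and 12.4% in the Gfap-low parts, so that they were lower in the Gfap-high part of replicates 2 and 3. A mitochondrial limit of 10% left 12 Gfap-high and 12 Gfap-low cells in replicate 2, too few for the fit. That fit therefore rests on 4 profiles, from replicates 1 and 3. In it Pygm was at -1.15 (edgeR adjusted p = 0.00420) and Ppp1r3g at -0.72 (edgeR adjusted p = 0.0594). The limit and the loss of replicate 2 cannot be told apart in these values.

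Pygm had 41.7, 49.5 and 30.4 CPM in Gfap-high astrocytes of replicates 1, 2 and 3, against 68.8, 177 and 80.0 CPM in Gfap-low astrocytes. The groups did not overlap and each library showed the lower value in the Gfap-high part. The log2 difference was -1.07 ± 0.18 (SE, adjusted p = 1.22e-05, edgeR's quasi-likelihood test). Phkg1 had 195, 321 and 190 CPM in Gfap-high astrocytes, against 304, 448 and 267 CPM in Gfap-low astrocytes. It was lower in each library although the groups overlapped, with replicate 2 high in both parts (log2 difference -0.49 ± 0.13, adjusted p = 0.00479, edgeR's quasi-likelihood test). Without the library as a block the calls of Pygm and Phkg1 were lost, at log2 differences of -1.19 and -0.47 (edgeR adjusted p = 0.132 and 0.460). Thinning to 1000 UMIs gave -0.95 for Pygm (adjusted p = 0.0685, edgeR's quasi-likelihood test) and -0.82 for Phkg1 (adjusted p = 0.00152). Thinning does not remove the relation of Phkg1 to depth given above. Astrocytes with 5000 or more UMIs had 204, 328 and 189 CPM in replicates 1, 2 and 3. Those with 1000 to under 5000 UMIs had 354, 518 and 364 CPM. The part of depth in the Gfap difference of Phkg1 was not tested. For Phkg1 the difference between the Gfap parts was -0.42 without replicate 1 (edgeR adjusted p = 0.418). It was -0.41 with a mitochondrial limit of 10%, which also leaves out replicate 2 (edgeR adjusted p = 0.199). Over the 11 alternatives Pygm lay between -1.44 and -0.93 and Phkg1 between -0.82 and -0.41.

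Ppp1r3g had 60.6, 148 and 43.2 CPM in Gfap-high astrocytes of replicates 1, 2 and 3, against 86.3, 61.7 and 85.1 CPM in Gfap-low astrocytes, so that replicate 2 went the other way from replicates 1 and 3. Its log2 difference of -0.49 ± 0.17 passed narrowly (adjusted p = 0.0462, edgeR's quasi-likelihood test) and was lost in 8 of 11 alternatives, among them without replicate 1 (-0.36, adjusted p = 0.706) and without replicate 3 (-0.10, adjusted p = 0.903). Ppp1r3c had 119, 134 and 97.5 CPM in Gfap-high astrocytes, against 92.1, 77.2 and 83.2 CPM in Gfap-low astrocytes. The groups did not overlap, and the difference of 0.39 ± 0.14 did not pass (adjusted p = 0.0575, edgeR's quasi-likelihood test); with RLE size factors it passed (adjusted p = 0.0414), and after thinning it was -0.04. Pygb was at 0.29 ± 0.13, and Ppp1r3d, Gys1 and Gbe1 lay between -0.37 and 0.15, none of them called (edgeR adjusted p = 0.120 to 0.807). Of the other pathway genes 20 were tested, and Ugp2, Calm3, Ppp1ca and Ppp1cb were higher in Gfap-high astrocytes by 0.37 to 0.60 on the log2 scale; the other 16 did not pass. Of these 4 calls, 1 was left with DESeq2 and 0 without the library as a block.

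**Figure D4:**
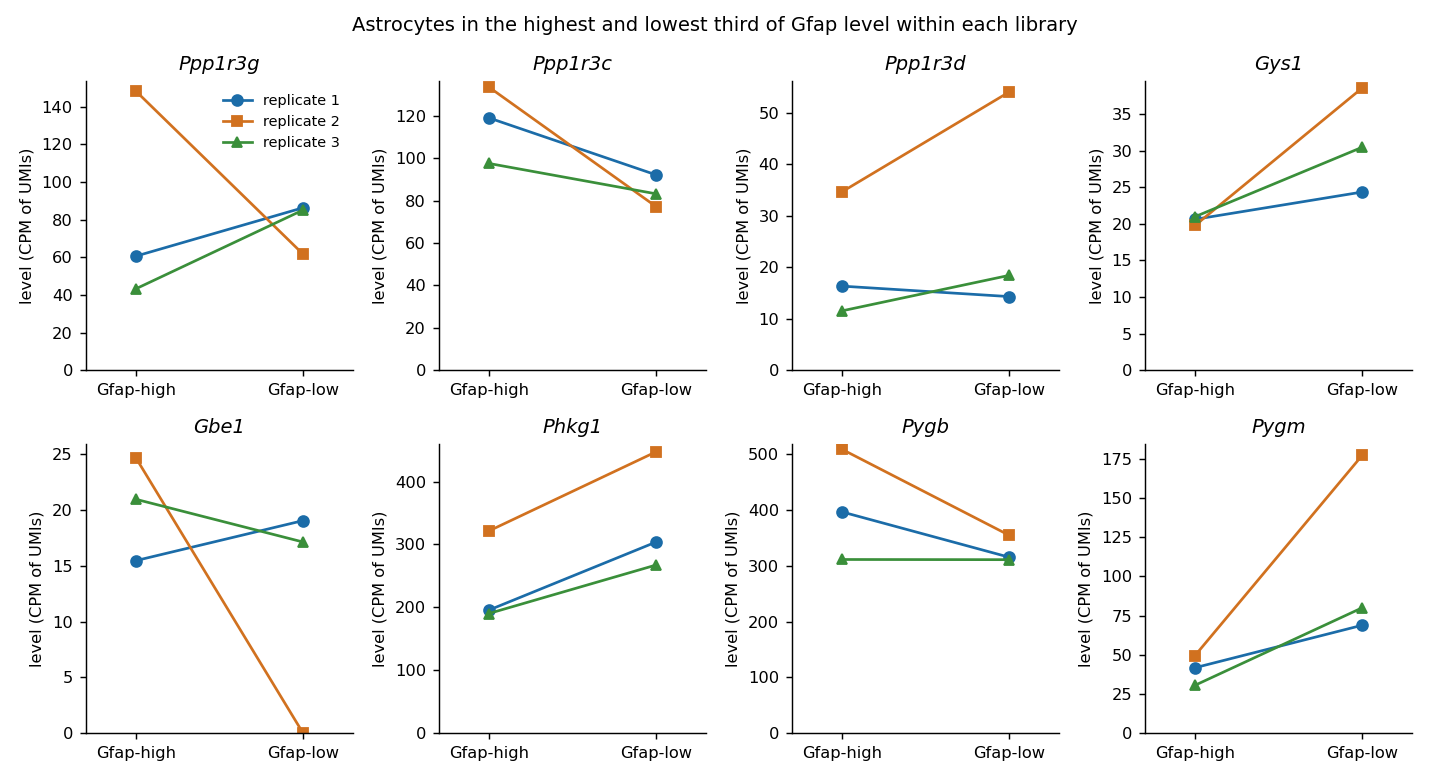
Level of the 8 genes in CPM of UMIs (y axis, linear from 0, scaled per gene) in the Gfap-high and Gfap-low parts of the astrocytes; lines join the 2 parts of 1 library. Pygm and Phkg1 are lower in the Gfap-high part of each library, and replicate 2 of Ppp1r3g runs against the other libraries.

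The genes most like each member over the 16 profiles, by Pearson's r of log2(CPM + 1) among 10476 genes, are given as a description, since the profiles share classes and libraries. Ppp1r3g was most like Dmp1, Ranbp3l and St6galnac5 (r = 0.98, 0.98 and 0.97), each of which had 27.6 to 65.4 CPM in astrocytes and at most 1.52 CPM elsewhere. Phkg1 was most like the water channel gene Aqp4, Clu and Pygb (each r = 0.98), and Pygb was most like Mlc1, Phkg1 and Slc25a18. Aqp4 is among the astrocyte markers that set the classes, and Mlc1 among those that checked them. Ppp1r3c was close to Abhd3 and Hopx (r = 0.96 each), and Gys1 like Slc14a1, Ephb1 and Col11a2 (r = 0.96, 0.96 and 0.96). Ppp1r3d had looser neighbours in Thrsp, Cyp4f13 and Exoc3l4 (r = 0.87, 0.87 and 0.86), and Pygm had Ttc38, Dgat1 and Mfge8 (r = 0.93, 0.91 and 0.91), of which Mfge8 is at 1472 CPM in astrocytes and 1986 CPM in pericytes. Gbe1 was most like Galnt15, Fgd5 and Clic5 (r = 0.96, 0.95 and 0.95), which had 46.3, 151 and 208 CPM in endothelial cells. Among the 8 genes themselves the closest pairs were Phkg1 with Pygb (r = 0.98) and Phkg1 with Ppp1r3c (r = 0.95), and Gbe1 had r between -0.35 and 0.09 with the other 7.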

How the data were processed

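Single cells of aged hippocampus were counted in 3 libraries. The deposited values are raw UMI counts per gene and barcode. The submitters' processing notes name Cell Ranger, without a version, and the mm10 genome. Tissue was digested with papain and freed of myelin, per the labels' protocols.

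A barcode needed 500 UMIs and 300 genes or more, with mitochondrial UMIs not above 20%; 6412, 954 and 5065 passed in replicates 1, 2 and 3. Scrublet, in scanpy 1.11.5, called 190, 8 and 133 doublets, which were removed. A cell joined a class when at least 3 of 10 markers were detected and at least 2 more than for any other of 19 classes. Each class of 20 or more cells in a library became 1 summed profile, and profiles were tested with edgeR 4.0.16 (filterByExpr, TMM, quasi-likelihood, library as a block, Benjamini-Hochberg over all genes, threshold 0.05). The design foresaw a profile for each library and class, but replicate 2 had too few pericytes and OPC, which left 16. TMM factors were 0.660 to 0.744 in microglia and 1.38 to 1.41 in OPC, so fitted differences from these classes depart from CPM ratios. The library is a block because all classes of a library come from the same tissue and droplets, and same-numbered profiles are the same library. Alternatives were other size factors, DESeq2 1.42.0, no filter on low counts, no block, stricter cells or classes, thinning and leaving out each library. Leaving pericytes out of the mean and using no scaling factors were chosen after seeing the data. The statistics were tested on simulated data, in which all profiles were alike except for genes changed in the astrocyte or Gfap-high profiles. Such data cannot test the scaling between classes that differ as widely as these.

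The members and gene lists were chosen with earlier results of these data known, including the astrocyte level of Ppp1r3g. Named genes were the 8 members, the other pathway genes that passed in astrocytes or are paralogues of a member, and the 3 genes of highest correlation with each member among those with at least 20 CPM in a class, predicted gene models left out; Gyg, Phka2 and Ppp1cb are named beside their group though they did not pass. Some listed genes are not reported here and are left out of the counts. Coordinates are 1-based from GENCODE M21 on mm10, and promoter windows are RefSeq on GRCm38.p6. RefSeq and GENCODE starts differ for Ppp1r3g and Phkg1.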

Additional observations from a re-analysis of the deposited data

Results flagged for a closer look

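Cells outside the 6 classes, too few for a test, also held UMIs of the 8 genes above what a count of 0 allows (3 counts over the class). Vascular smooth muscle-like cells, 74 cells set by markers such as Acta2 and Myh11, had Pygb at 94.3 CPM, Ppp1r3c at 52.4, Pygm at 41.9, Phkg1 at 18.3, Gbe1 at 15.7 and Gys1 at 10.5 CPM. Their summed astrocyte markers were at 610 CPM, and Ppp1r3g had 0 UMIs there. Border macrophage-like cells, 152 cells, had Pygb and Gbe1 at 17.1 CPM each, Ppp1r3d at 10.7 and Ppp1r3g at 4.28 CPM, the last from 4 UMIs that all came from replicate 1. Fibroblast-like cells, 46 cells with astrocyte markers at 1443 CPM, had Pygm and Gbe1 at 20.6 CPM each and Pygb at 11.8 CPM. T or NK cell-like cells, 37 cells, had Gbe1 at 27.2 CPM. The part of free astrocyte RNA in these levels was not tested.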

How the results depend on the processing

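The 7 astrocyte calls held under each alternative in which the gene was tested, with adjusted p up to 2.97e-06. Log2 differences ranged from 6.86 to 8.63 for Ppp1r3g, 4.49 to 5.06 for Phkg1, 3.86 to 4.35 for Ppp1r3c, 3.46 to 3.71 for Pygb, 3.095 to 4.12 for Pygm, 3.01 to 4.40 for Ppp1r3d and 2.54 to 4.11 for Gys1. Ppp1r3d did not pass the low-count filter after thinning to 1000 UMIs, which left 6 member calls, 2296 genes higher and 1419 lower in astrocytes. Thinning gave 3714 genes called in ependymal cells, 4130 in endothelial cells, 4184 in microglia, 1080 in pericytes and 2669 in OPC, and 9 of 42 member results against the mean of the other classes lost their call; fewer UMIs entered that fit. Without scaling factors the median over all genes moved to -0.73 in microglia and 0.54 in OPC, Gys1 in OPC passed (2.51, adjusted p = 0.00770) and the OPC call of Ppp1r3c was lost at the same sign (adjusted p = 0.0661). With RLE size factors Gys1 in OPC passed as well (2.01, adjusted p = 0.0439). The endothelial call of Ppp1r3d was lost without replicate 1 or 3, and the OPC call of Gbe1 without replicate 3.

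Leaving out 1 library at a time gave 3274 to 4101 genes higher and 1930 to 2704 lower in astrocytes, 1368 to 2055 called in pericytes, 3836 to 6124 in OPC and 193 to 1736 between Gfap ranges, the lowest of each without replicate 1; the last was 406 without replicate 3. The library was a replicate block except in the fits made without it. With no replicate block the Gfap comparison called 35 genes and none of the 8, against 1336 and 3, and otherwise only the endothelial call of Ppp1r3d changed among results against the mean of the other classes (-1.52, adjusted p = 0.0552). The Gfap comparison called 239 genes with DESeq2, 468 after thinning and 571 with a mitochondrial limit of 10%, which also leaves out replicate 2. The cause was not tested.

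Shares of astrocytes with a UMI, given here as means of the 3 libraries, follow depth. Thinned to 500 UMIs they were 3.64% for Ppp1r3g, 4.41% for Ppp1r3c, 1.23% for Gys1, 16.8% for Pygb, 2.41% for Pygm and 11.7% for Phkg1. Without thinning they were 24.8%, 33.4%, 11.4%, 62.7%, 20.4% and 55.0% for the same genes, 10.8% for Ppp1r3d and 7.19% for Gbe1. Levels resting on few UMIs, as in pericytes and OPC, are limited by counting error.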
